A study of Mus musculus with 9 samples.

Results

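Genes that mark or direct the globose basal progenitors of the olfactory epithelium were followed through systemic dexamethasone treatment of mice. They were Kit, Lgr5, Sox2, Pax6, Hes6, Neurog1, Neurod1, Insm1 and Ezh2, 9 of the 19084 genes named on the arrays. They were chosen by name, and each was represented by its brightest probe, the one with the highest mean over all arrays. Neurog1 had 2 probes and every other gene had 1.

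Total RNA was taken from olfactory mucosa, the part of the nasal lining that carries the sense of smell, and hybridised to 9 single-colour arrays. All mice were wild-type C57BL/6 males aged 6 to 8 weeks. The control group received saline only for 2 weeks. The WK2 group received dexamethasone, a synthetic agonist of the glucocorticoid receptor, intraperitoneally at 1 mg/kg each day for 2 weeks, and the D1 group received dexamethasone for 1 day. There were 27 mice, 9 in each group, and 3 samples of each group were put on arrays because they had optimal expression of olfactory marker protein, which Omp encodes and mature olfactory neurons make. Omp was thus part of how the samples were picked and is no independent result. D1 and its control also differed in the length of injection. The labels do not state whether samples within a group are from different mice, so the p-values measure only how far these samples spread, part of which may be technical.

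The olfactory epithelium replaces its neurons throughout life from basal cells. Horizontal basal cells are a mostly quiescent reserve, while globose basal cells divide and pass through a Notch-regulated sequence of transcription factors, in which Sox2 and Pax6 mark early progenitors and Neurog1 and Neurod1 mark cells committed to neurons. Newly formed neurons then express growth-associated genes such as Gap43 before they mature and express Omp.

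The tissue label was checked against Cyp2g1, a cytochrome P450 of sustentacular cells, which lay between 373325 and 677700 intensity units over the 9 arrays. Omp lay between 300267 and 540038, but as part of how the samples were picked it cannot check the label. Array medians were 1202 to 1447 units. Arrays of a group correlated at 0.977 to 0.993 over all features on the log2 scale, and arrays of different groups at 0.958 to 0.994. Control replicate 2 and WK2 replicate 3 stood apart: their array weights, which fall as an array departs from its group, were 0.233 and 0.265, against 0.847 or more for each of the others. For WK2 against control, values without them are given beside the genes whose difference they moved by over 1.5 times or turned in sign. Arrays carry no read depth, and the number of arrays limits the precision. In RNA from whole tissue, fewer cells of a type and less RNA per cell cannot be told apart.

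Kit was the 1 gene of the 9 that passed the test in any comparison, and it was lower after 2 weeks of dexamethasone. Neurog1 was higher on its brighter probe in every WK2 array than in any control array but did not pass, and its dimmer probe did not show this. Neurod1, Hes6, Sox2 and Pax6 had WK2 and control means within 0.057 of each other on the log2 scale. Lgr5 and Insm1 had lower means and Ezh2 a higher mean after 2 weeks, with groups that overlapped.

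**Figure D1:**
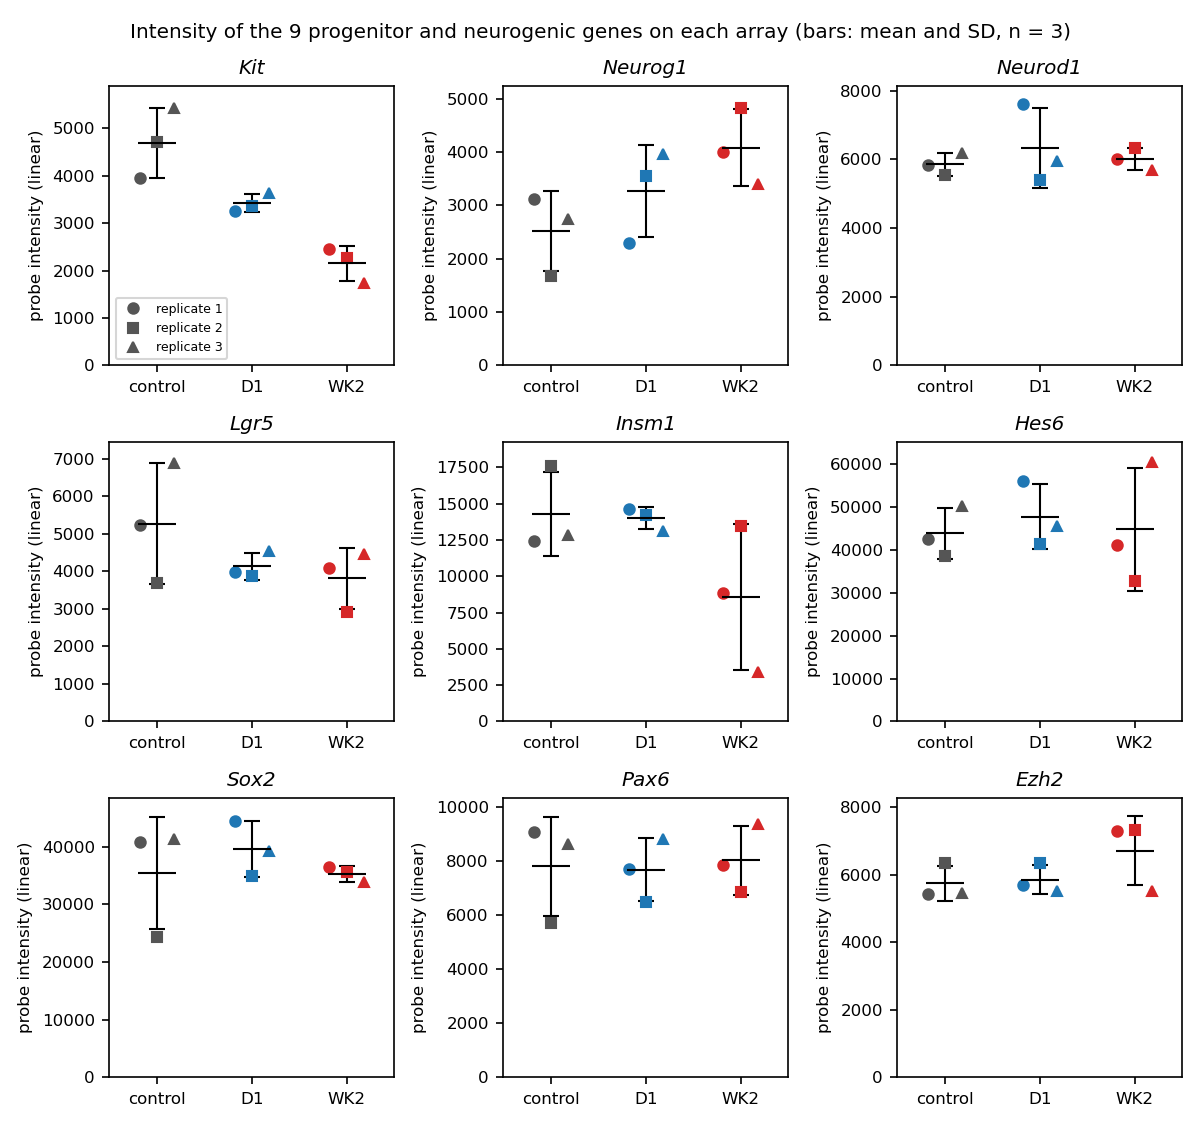
Intensity of the 9 genes on each array (points, linear scale, each panel with its own axis) in the control, D1 and WK2 groups, with the mean and SD of 3 arrays as a bar. Kit lies in descending order from control to D1 to WK2 with no overlap, whereas the groups of Neurod1, Hes6, Sox2 and Pax6 overlap.

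Kit encodes the receptor tyrosine kinase for stem cell factor and is carried by globose basal cells and by mast cells and melanocytes. Its control arrays read 3952, 4703 and 5419 units, its D1 arrays 3256, 3369 and 3632, and its WK2 arrays 2453, 2254 and 1740. Every D1 array lay below every control array, and every WK2 array lay below every D1 array. Such a descending order with no overlap was found in 253 of 23631 features, or 1.07%. The group means were 4691 ± 733 units in controls, 3419 ± 193 in D1 and 2149 ± 368 in WK2 (SD, n = 3).

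After 2 weeks Kit fell by 1.11 ± 0.17 (SE) on the log2 scale against control, a 2.16-fold lower level with a 95% interval of 1.65 to 2.83 (limma, adjusted p = 0.0390). The same test called 1.61% of all features in that comparison, and 1.18% of all features as lower, while 13.8% of all features were lower in WK2 with no overlap. After 1 day the difference was -0.44 ± 0.17 (adjusted p = 1.00), where 5.19% of all features were lower with no overlap. Between WK2 and D1 it was -0.67 ± 0.17 (adjusted p = 0.142), where 12.6% of all features were lower with no overlap. Neither neighbouring pair of groups differed past the test. The call of Kit rested on the full set of arrays: with 1 array left out it was lost in 8 of 9 fits, at adjusted p values of 0.0645 to 0.148, and was kept only without WK2 replicate 1. The difference itself then ranged from -1.23 to -0.97. Without both control replicate 2 and WK2 replicate 3 it was -0.96 (adjusted p = 0.0962). Calls over all features fell in the same fits. The 8 fits that lost Kit called 1 to 37 of 23631 features, against 380 with all arrays. The fit without WK2 replicate 1 called 953, and that without both arrays called 0.

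**Figure D2:**
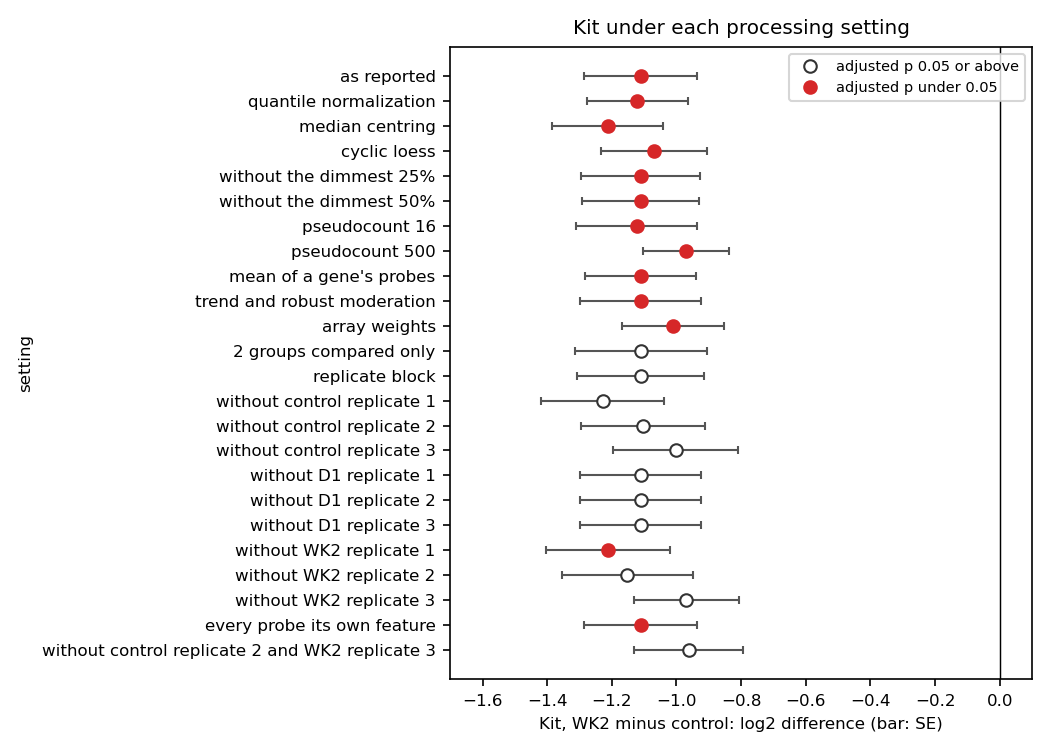
Log2 difference of Kit between WK2 and control as reported and under each of the 23 alternatives (vertical axis), with the difference on the horizontal axis, its SE as a bar and filled points where the adjusted p is under 0.05. All values lie between -1.23 and -0.96, and 12 of the 23 alternatives pass an adjusted p of 0.05.

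The promoter of Kit is shown because Kit carried the one call. It is the 250 bases before an annotated start, chr5:75574737-75574986 on the plus strand of GRCm38.p6 (RefSeq), with a GC content of 70.8%. Capitals mark matches on either strand to CACNAG, the N-box that Hes repressors of the Notch pathway are known to bind.
Kit: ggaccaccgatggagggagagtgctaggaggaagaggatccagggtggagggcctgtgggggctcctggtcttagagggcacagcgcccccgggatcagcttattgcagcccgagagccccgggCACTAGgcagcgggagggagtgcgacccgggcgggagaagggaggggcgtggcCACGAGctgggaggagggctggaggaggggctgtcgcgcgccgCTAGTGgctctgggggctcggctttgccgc
The matches begin 126, 73 and 30 bases before the start. An N-box was present in 36.7% of 27025 promoter windows of this length, so its presence here is a description. Promoters were found for 7 of the 9 genes. Kit, Hes6 and Pax6 each had 2 promoter entries, and only the first of each was read. Of these, 2 held an N-box (Kit and Ezh2), 1 held the E-box CAGCTG (Hes6, 12.8% of windows), 0 held the E-box CAGATG (14.5%), 1 held the glucocorticoid response element half-site AGAACA (Ezh2, 16.2%) and 0 held the full palindromic glucocorticoid response element, which 1 of the 27025 windows held.

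Because mast cells and melanocytes also carry Kit, their markers were read beside it. Of 9 mast cell markers 8 were measured, and the mean of each was higher in WK2 than in control, with 0 passing the test and a median difference of 0.40 on the log2 scale, against 0.14 over all features. The summed intensity of the 8 was 38013 to 43678 in controls, 42141 to 45682 in D1 and 57551 to 88324 in WK2, most of it from Hdc, which makes histamine and is not particular to mast cells. The mast cell protease Tpsab1 differed by 0.78 ± 0.26 (adjusted p = 0.0944) and Cma1 by 0.43 ± 0.17 (adjusted p = 0.135). Tpsab1 was lowest in control replicate 2, without which it differed by 0.47 (adjusted p = 0.182), and without WK2 replicate 3 as well Cma1 differed by 0.21. Under quantile normalization Cma1 differed by 0.23 and under cyclic loess by 0.25. With array weights Cma1 differed by 0.21 and Tpsab1 by 0.49. The summed intensity uses the deposited scale. None of the 8 was at 0, although Ms4a2, a chain of the IgE receptor, was as low as 27.8 units. The markers had higher means in WK2, where Kit was lower, and the part of mast cells in the values of Kit was not tested. Of the 5 melanocyte markers 4 had a higher mean and 1 a lower mean in WK2, 0 passed, the median difference was 0.31, and the summed intensity was 4166 to 5212 in controls, 4022 to 5016 in D1 and 4607 to 5591 in WK2.

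Lgr5, a receptor for R-spondins that marks cycling globose basal cells, read 5229, 3680 and 6887 units in controls, 3978, 3877 and 4531 in D1, and 4081, 2907 and 4456 in WK2. One control array was as low as the treated ones, so the groups overlapped. The WK2 difference was -0.44 ± 0.24 (95% interval -0.97 to 0.10, adjusted p = 0.236) and the D1 difference -0.30 ± 0.24. The low control array was control replicate 2. Without it the WK2 difference was -0.67, without control replicate 3 it was -0.22 (adjusted p = 0.550), without WK2 replicate 2 it was -0.26, and without control replicate 2 and WK2 replicate 3 together it was -0.79. With array weights it was -0.67 and passed (adjusted p = 0.0490), the 1 of 23 alternatives in which it did. That setting called 2738 of all 23631 features, against 380 without weights.

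Of the 15 listed genes of Kit and Lgr5 signalling 14 were measured, 7 with a higher and 7 with a lower mean in WK2, and 0 passed. Kitl, the ligand of Kit, was dim, at 221 to 373 units, and differed by 0.088 ± 0.18. Lef1, a transcription factor of Wnt signalling, differed by -0.68 ± 0.18 (adjusted p = 0.0645) and Rspo3, an R-spondin, by 0.33 ± 0.15 (adjusted p = 0.164). Lef1 was dim, and with 500 in place of 50 added to the intensity it differed by -0.23. Rspo3 differed by 0.15 under quantile normalization and by 0.16 under cyclic loess. The Lgr5 relative Lgr4 differed by -0.16 ± 0.14.

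Sox2 is a transcription factor that keeps progenitors undifferentiated and is also present in sustentacular cells. It read 40771, 24333 and 41292 units in controls, 44547, 34859 and 39307 in D1, and 36530, 35701 and 33823 in WK2. Control replicate 2 was the lowest of the 9 arrays, and the other 2 controls lay above all WK2 arrays. WK2 differed from control by 0.035 ± 0.21 (95% interval -0.43 to 0.50, adjusted p = 0.919), and without control replicate 2 it was -0.22, the opposite sign. Without WK2 replicate 3 it was 0.067.

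Pax6, a paired-box factor of the olfactory placode and of basal progenitors, read 9080, 5712 and 8636 units in controls, 7717, 6495 and 8823 in D1, and 7859, 6846 and 9378 in WK2. The 3 groups covered much the same range. Its difference after 2 weeks was 0.057 ± 0.21 (95% interval -0.42 to 0.53, adjusted p = 0.869), -0.15 without control replicate 2, which again was the lowest array, and -0.061 without WK2 replicate 3.

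Hes6, a Hes family member that promotes neuronal differentiation by opposing Hes1, was the brightest of the 9 genes. It read 42588, 38627 and 50358 units in controls, 56189, 41416 and 45646 in D1, and 41254, 32655 and 60594 in WK2. The WK2 arrays held both the lowest and the highest value. The group means differed by -0.0070 ± 0.23 (95% interval -0.52 to 0.51, adjusted p = 0.986), by -0.25 without WK2 replicate 3, by -0.094 without control replicate 2 and by 0.20 without WK2 replicate 2.

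Neurog1, a proneural basic helix-loop-helix factor of committed progenitors, read 3122, 1685 and 2751 units in controls, 2292, 3559 and 3963 in D1, and 4009, 4834 and 3394 in WK2 on its brighter probe. All WK2 arrays lay above all control arrays, while D1 overlapped both. The WK2 difference was 0.72 ± 0.27 (95% interval 0.11 to 1.32, adjusted p = 0.122), and 0.46 without control replicate 2, the lowest array (adjusted p = 0.299). Groups that did not overlap with WK2 higher made up 23.8% of all features.

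The dimmer Neurog1 probe read 1459, 1877 and 1621 units in controls, 2499, 1756 and 1633 in D1, and 1547, 1772 and 1286 in WK2. Here WK2 and control overlapped, with a difference of -0.11 ± 0.20 (adjusted p = 0.724). The probes of this gene correlated at -0.44 over the 9 arrays on the log2 scale. The direction for Neurog1 therefore depended on the probe, and the mean of both differed by 0.30 (adjusted p = 0.214).

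Neurod1, the factor that follows Neurog1 in cells about to become neurons, read 5827, 5534 and 6193 units in controls, 7621, 5384 and 5962 in D1, and 5996, 6340 and 5697 in WK2. It had the smallest spread of the 9 genes, with a coefficient of variation of 10.9% over the 9 arrays. WK2 minus control was 0.039 ± 0.16 (95% interval -0.31 to 0.39, adjusted p = 0.880), -0.00046 without control replicate 2 and 0.076 without WK2 replicate 3.

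Insm1, a zinc-finger factor that promotes the exit of basal progenitors from the cycle, read 12400, 17628 and 12826 units in controls, 14659, 14195 and 13155 in D1, and 8836, 13481 and 3421 in WK2. The WK2 arrays were spread widely, and WK2 replicate 2 lay among the controls. The WK2 difference was -0.92 ± 0.40 (95% interval -1.81 to -0.03, adjusted p = 0.159). Without WK2 replicate 3, the lowest array, it was -0.37 (adjusted p = 0.343), and without control replicate 2 as well it was -0.21.

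Ezh2 encodes the methyltransferase of Polycomb repressive complex 2, which places a repressive mark on histone H3. It read 5419, 6337 and 5462 units in controls, 5691, 6340 and 5527 in D1, and 7300, 7320 and 5520 in WK2. WK2 replicates 1 and 2 lay above every control and D1 array, and WK2 replicate 3 lay among them. The WK2 difference was 0.22 ± 0.16 (95% interval -0.14 to 0.57, adjusted p = 0.360). It was 0.35 without WK2 replicate 3 (adjusted p = 0.193), 0.42 without control replicate 2 as well, and 0.15 without WK2 replicate 2.

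**Figure D3:**
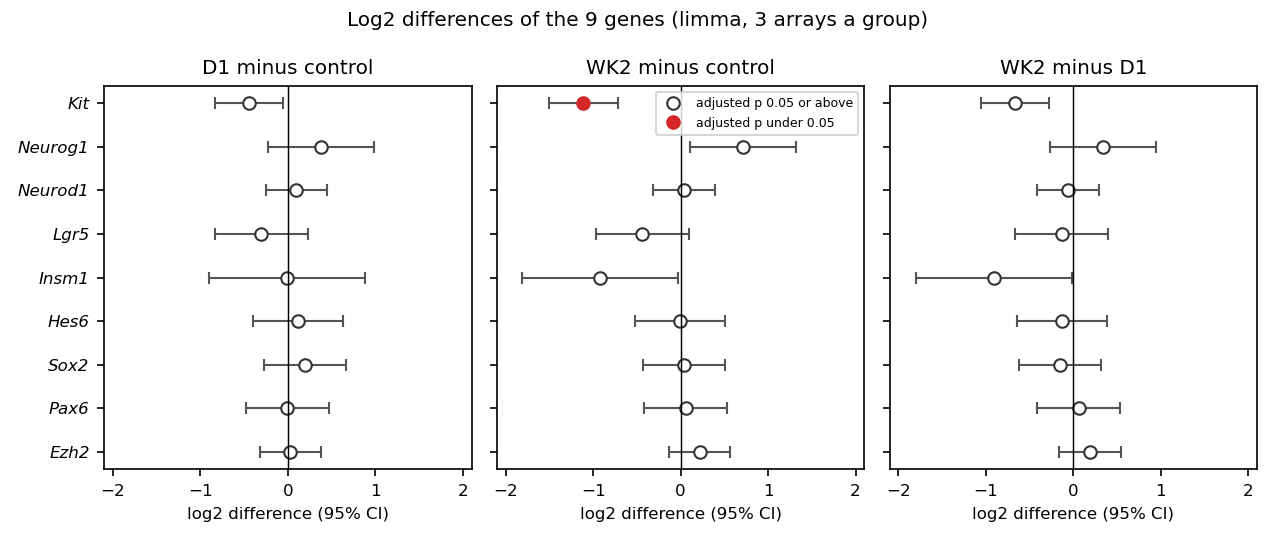
Log2 differences of the 9 genes for D1 minus control, WK2 minus control and WK2 minus D1, with 95% intervals from limma (horizontal axis, log2 scale). Kit in WK2 minus control, at -1.11, is the 1 difference with an adjusted p under 0.05.

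Against control after 1 day, 5 of the 9 genes had a higher mean and 4 a lower one, and 0 passed, as did 0.0% of all features. At an unadjusted p under 0.05 there was 1 of the 9, Kit, and 2.0% of all features, and the groups did not overlap for 1, Kit, against 10.1%. The median difference of the 9 was 0.029, against 0.031 over all features. After 2 weeks the split was again 5 and 4, 1 of the 9 passed and 3 had an unadjusted p under 0.05, as did 29.7% of all features. The groups did not overlap for 2 of the 9 genes, against 37.6% of all features, and the median difference was 0.035 against 0.14. Between WK2 and D1, 3 genes had a higher and 6 a lower mean, and 0 passed, against 0.0931% of all features. At an unadjusted p under 0.05 there were 2 (Kit and Insm1), against 19.2%, and the groups did not overlap for 1, Kit, against 31.4%. The comparisons with control share the control arrays. The WK2 split and median of the 9 depended on control replicate 2: without it 2 genes had a higher and 7 a lower mean (median -0.15), without WK2 replicate 3 as well the split was 3 and 6 (median -0.21), and with array weights it was 3 and 6 (median -0.17). Median centring also gave 2 higher and 7 lower (median -0.066) and lowered the median of all features from 0.14 to 0.038.

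**Figure D4:**
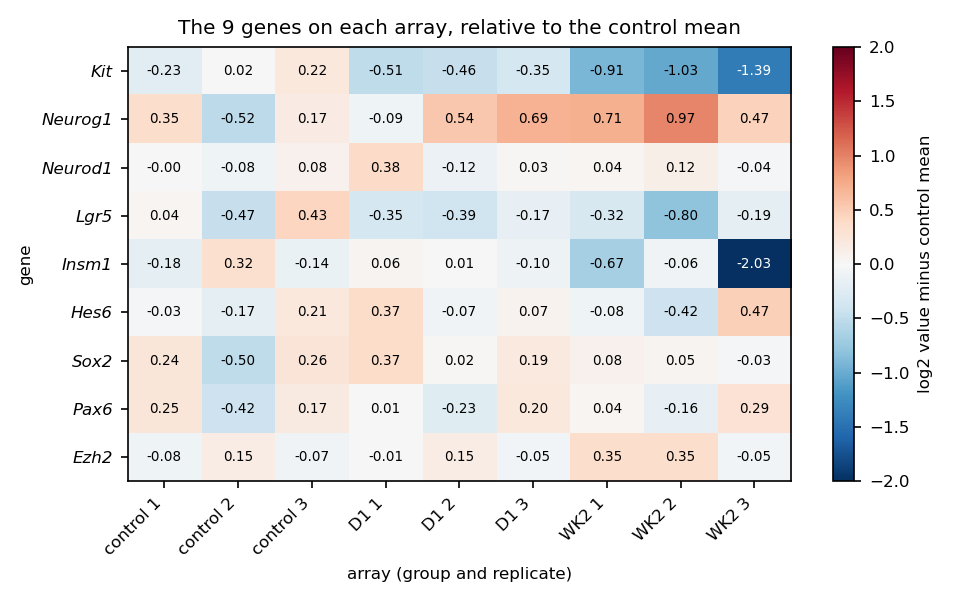
The 9 genes on each array, as log2 difference from the gene's control mean (colour scale, rows are genes and columns are arrays). Kit reaches its lowest values in WK2, control replicate 2 differs from the other controls for Neurog1, Sox2, Pax6 and Lgr5, and WK2 replicate 3 is low for Insm1.

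The genes did not vary as 1 block over the 9 arrays. The highest correlation was between Insm1 and Kit (r = 0.73), followed by Pax6 and Sox2 (r = 0.67) and Pax6 and Lgr5 (r = 0.64), and the lowest was between Ezh2 and Hes6 (r = -0.73). These values are descriptions over 9 arrays that share groups and the 2 arrays that stood apart. The features most like Kit were Map3k11 (r = 0.99) and Trafd1 (r = 0.98), and 131 features correlated with Kit above 0.95. The features most like Neurog1 were Irx4 and Agtr1b (both r = 0.98), those most like Insm1 Zfp598 and Gatad2a (both r = 0.99), and those most like Sox2 Ywhaz (r = 0.98) and Twf1 (r = 0.97). Lgr5 was most like Ryr3 (r = 0.95), Pax6 most like Shoc2 (r = 0.97), Hes6 most like Tatdn3 (r = 0.96), Ezh2 most like Ibtk (r = 0.98) and Neurod1 most like Ier2 (r = 0.95).

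Genes of the Notch pathway, through which neighbouring cells restrain neuronal commitment, were all measured. Of 19, 6 had a higher and 13 a lower mean in WK2, with a median difference of -0.18 against 0.14 over all features. Notch3, a Notch receptor, read 4219, 5510 and 5935 units in controls, 5043, 4188 and 4411 in D1, and 3022, 3197 and 2708 in WK2. All WK2 arrays lay below all others, and it fell by 0.79 ± 0.17 (adjusted p = 0.0499). Hes1, the repressor induced by Notch, differed by -0.85 ± 0.22 (adjusted p = 0.0631), or -0.49 without control replicate 2 and WK2 replicate 3, with all WK2 arrays below all others, and Lfng, which modifies Notch receptors, by -0.48 ± 0.19 (adjusted p = 0.131).

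Of 27 other neurogenic factors 24 were measured, 4 with a higher and 20 with a lower mean in WK2, 0 passed, and the median difference was -0.37. The 3 with the smallest p were the olfactory neuron factors Ebf4 (-0.91 ± 0.20, adjusted p = 0.0551), Ebf1 (-0.62 ± 0.15, adjusted p = 0.0585) and Ebf2 (-0.78 ± 0.19, adjusted p = 0.0593). Each had all WK2 arrays below all control arrays, as did 13.8% of all features.

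All 12 genes of Polycomb repressive complex 2, its partners and the opposing demethylases were measured, 5 with a higher and 7 with a lower mean in WK2. Jarid2, which helps bring the complex to its targets, read 25976, 28743 and 23525 units in controls, 23266, 21975 and 21518 in D1, and 18330, 13667 and 14328 in WK2. The groups lay in descending order with no overlap, and Jarid2 fell by 0.76 ± 0.16 after 2 weeks (adjusted p = 0.0493). The core subunits Eed and Suz12 differed by 0.10 ± 0.26 and 0.0067 ± 0.14. The partner Phf1 differed by -0.62 ± 0.18 (adjusted p = 0.0741) and the demethylase Kdm6b by -0.79 ± 0.23 (adjusted p = 0.0766). Without WK2 replicate 3 Kdm6b differed by -0.49, and without control replicate 2 as well Phf1 differed by -0.41.

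Immature neurons, the progeny of these progenitors, had 14 markers measured, 4 with a higher and 10 with a lower mean in WK2. Their summed intensity overlapped between the groups, at 685900 to 724008 in controls, 653822 to 760275 in D1 and 614199 to 726201 in WK2. WK2 replicate 3 had the highest sum of its group, above every control. Dpysl5, a collapsin response mediator of growing axons, read 15626, 15551 and 19132 units in controls, 16188, 11819 and 15019 in D1, and 8856, 7212 and 5188 in WK2, all WK2 arrays being lowest. It fell by 1.26 ± 0.21 (adjusted p = 0.0398). Its relative Crmp1 differed by -1.34 ± 0.35 (adjusted p = 0.0631) and the adhesion molecule Ncam1 by -0.75 ± 0.20 (adjusted p = 0.0659). Crmp1 was lowest in WK2 replicate 3, without which it differed by -0.85 (adjusted p = 0.0800). With 1 array left out, the calls of Jarid2 and Dpysl5 held in 1 of 9 fits, the one without WK2 replicate 1, and that of Notch3 in 0 of 9. Over all features that 1 fit called 953 of 23631, and the other fits 1 to 37. Over all 23 alternatives Notch3 was called in 8, Jarid2 in 10 and Dpysl5 in 12.

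Of 22 markers of cycling cells 19 were measured, 11 with a higher and 8 with a lower mean in WK2, and 0 passed. The markers with the smallest p went opposite ways. Mki67, a nuclear protein of dividing cells, differed by -0.74 ± 0.20 (adjusted p = 0.0685), while the topoisomerase Top2a differed by 0.38 ± 0.19 (adjusted p = 0.203) and the spindle protein Nusap1 by 0.34 ± 0.18 (adjusted p = 0.227). Without WK2 replicate 3 Top2a differed by 0.18 and Nusap1 by 0.16. With the mean of its probes in place of the brightest one, Mki67 differed by -0.27 (adjusted p = 0.236).

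**Figure D5:**
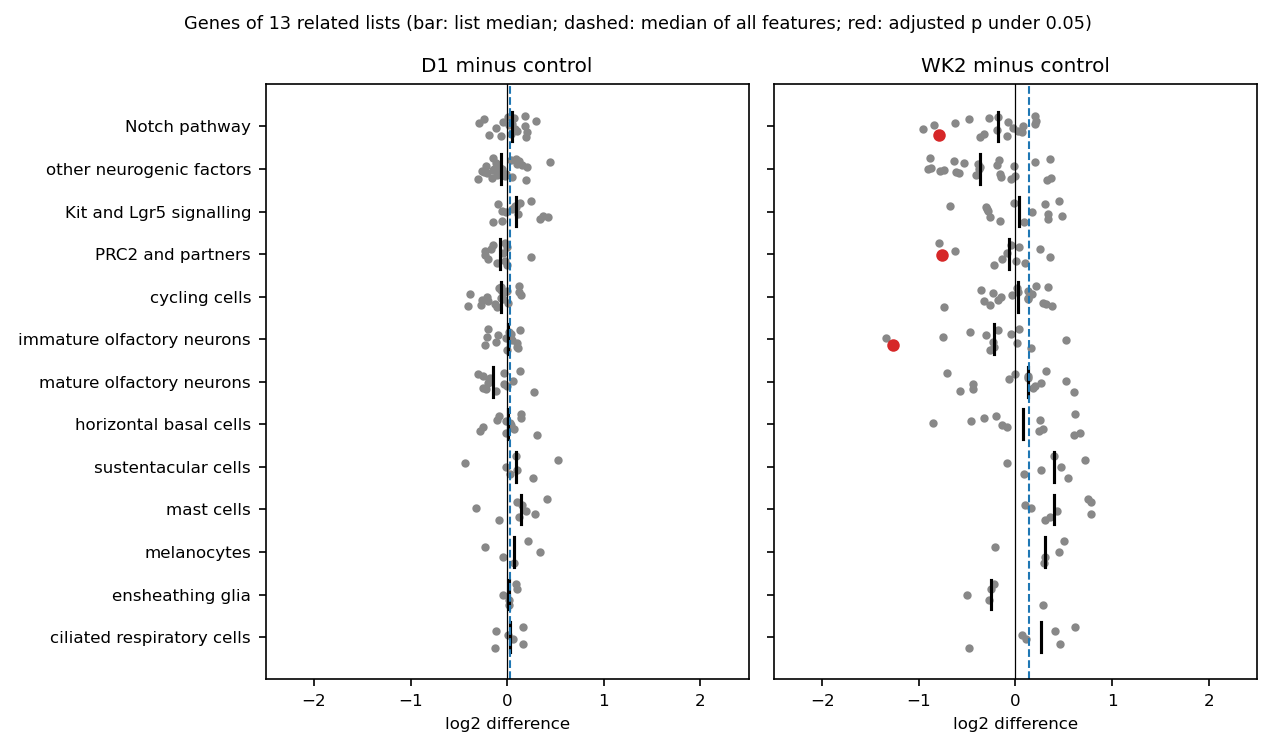
Log2 difference from control (horizontal axis) in D1 (left panel) and WK2 (right panel) for each measured gene of 13 lists (points, red where the adjusted p is under 0.05), with each list's median as a bar and the median of all features as a dashed line. In WK2 that line lies at 0.14. Furthest below it are the medians of other neurogenic factors (-0.37), ensheathing glia (-0.25), immature neurons (-0.22) and the Notch pathway (-0.18). Also below it are the Polycomb list (-0.068), cycling cells (0.024), Kit and Lgr5 signalling (0.037), horizontal basal cells (0.078) and mature neurons (0.13). Above it are the sustentacular and mast cell lists (both 0.40), melanocytes (0.31) and ciliated respiratory cells (0.26).

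Markers of other cell types of the mucosa were read in the same arrays. Of 9 sustentacular markers 7 were measured, 6 with a higher mean in WK2, 0 passed, and their summed intensity was 1441158 to 1798161 in controls, 1700032 to 2010366 in D1 and 2105966 to 2231665 in WK2. These sums use the deposited scale, and the differences of their genes depended on normalization. Cyp2g1 differed by 0.54, but by -0.029 under quantile normalization and 0.18 under cyclic loess. The sustentacular marker Cbr2 differed by 0.72, but by 0.21 and 0.41 under the same settings. Of the 12 horizontal basal cell markers 6 had a higher and 6 a lower mean, and 0 passed: the keratins Krt14 and Krt5 differed by 0.66 ± 0.15 (adjusted p = 0.0551) and 0.60 ± 0.20 (adjusted p = 0.0974), and the integrin Itgb4 by -0.85 ± 0.28 (adjusted p = 0.0905), or -0.50 without WK2 replicate 3. Of the 14 mature neuron markers 8 had a higher and 6 a lower mean, 0 passed and the median difference was 0.13: the signalling subunit Gng13 differed by 0.52 ± 0.15 (adjusted p = 0.0779), the phosphodiesterase Pde4a by -0.70 ± 0.22 (adjusted p = 0.0842) and Omp by 0.60 ± 0.19 (adjusted p = 0.0854). Under quantile normalization Omp differed by 0.070 (adjusted p = 0.824) and Gng13 by 0.22, and under cyclic loess by 0.27 and 0.31. Pde4a differed by -0.45 without control replicate 2 and WK2 replicate 3. Omp was part of how the samples were picked, so its difference and its place in this list are no independent result. Of 7 ensheathing glia markers 5 were measured, 1 with a higher and 4 with a lower mean, 0 passed and the median difference was -0.25. Of the 6 markers of ciliated respiratory cells 5 had a higher and 1 a lower mean, and 0 passed. After 1 day 0 genes passed in any of the 13 lists. The part of these differences in the values of Kit and the other progenitor genes was not tested.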

How the data were processed

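The authors deposited 1 table of intensity values on a linear scale, 26423 probes by 9 arrays, with 8 to 18 values per array below 0. Per the labels' protocols, RNA with an integrity number of at least 7 was amplified from 1 µg and labelled with Cy5. No source used here gives the scanner or the normalization. Probes were named through the platform annotation: 21876 had 1 gene symbol, 0 had several and 4547 had none, and 21825 had a gene ID in RefSeq (GRCm38.p6). The brightest probe stood for each gene, which left 23631 features.

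Values were tested as log2(intensity + 50), a scale that understates changes of dim genes, computed here from the deposited intensity. Limma 3.58.1 in R 4.3.3 fitted all 9 arrays with 3 group means, with Benjamini-Hochberg adjustment over all features and calls at an adjusted p under 0.05. With 3 against 3 arrays an exact permutation test cannot go below 0.1. From 13 gene lists the text names every called gene and up to 3 of the smallest p in WK2 against control. Kitl, Lgr4, Eed and Suz12 were named after their values were seen, as partners of the 9 genes. The 9 genes and the lists were chosen with earlier results of these data known. There were 23 alternatives: 21 listed at the start and 2 (every probe as its own feature, and leaving out 2 arrays) chosen after seeing the data.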

Additional observations from a re-analysis of the deposited data

Results flagged for a closer look

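Top2a, a topoisomerase of dividing cells, lay on opposite sides of control at the 2 times. Its arrays read 4352, 5059 and 4647 units in controls, 3329, 3821 and 3454 in D1, and 5722, 4890 and 8086 in WK2. All D1 arrays lay below the control mean and all WK2 arrays above it. This rule was applied to the progenitor genes and the named list genes, and the share of all features that meet it was not counted. WK2 replicate 3 was the highest, and without it WK2 minus control went from 0.38 to 0.18. The difference between WK2 and D1 was 0.78 ± 0.19 on the log2 scale and did not pass (limma, adjusted p = 0.129); that the effects at the 2 times differ was not tested apart from this, and both use the same controls.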

How the results depend on the processing

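All 27 differences of the 9 genes were recomputed under 23 alternatives, and of the 621 values 44 had the opposite sign, in 14 of the differences. Kit, Lgr5 and Insm1 stayed lower and Neurog1 (brighter probe) and Ezh2 higher in WK2 than in control in all 23. The number of the 9 genes called in WK2 against control was 2 with array weights (Kit and Lgr5), and 0 with the 2 groups fitted alone, with the replicate block and when both arrays that stood apart (control replicate 2, WK2 replicate 3) were omitted. Of all 23631 features these settings called 2738, 0, 1 and 0, in that order. With 1 array left out the number of the 9 genes called was 0 to 1, against 1 to 953 over all features. In the other comparisons the number of the 9 genes called was 0 throughout. Over all features, calls ranged from 0 to 2738 in WK2 against control, from 1 to 134 in WK2 against D1 and from 0 to 1 in D1 against control; median centring gave 221 higher and 1324 lower against 102 and 278 as reported, and in WK2 against D1 quantile normalization gave 15 and 60, median centring 10 and 40 and cyclic loess 12 and 41 against 7 and 15. The replicate numbers gave no sign of pairing the samples. Deviations correlated at -0.28 to 0.14 over 9 same-numbered pairs and at -0.34 to 0.31 over 18 others. With so few arrays this cannot exclude pairing. The replicate block, under which Kit was -1.11 (limma, adjusted p = 0.105), is given here only.

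Opposite signs in WK2 minus control were -0.043 (quantile), -0.066 (median centring), -0.0023 (cyclic loess) and -0.15 (array weights) for Sox2, -0.044 (median centring) and -0.17 (array weights) for Pax6, -0.062 (median centring) for Neurod1 and -0.029 (quantile) for Cyp2g1. In D1 minus control they were 0.023 (quantile), 0.028 (cyclic loess) and 0.091 (array weights) for Insm1, 0.021 and 0.027 (quantile, cyclic loess) for Pax6, -0.033 (array weights) for Sox2 and -0.024 (median centring) for Ezh2. In WK2 minus D1 it was -0.053 (array weights) for Pax6. With arrays left out, D1 minus control ranged from -0.029 to 0.10 for Ezh2, -0.0038 to 0.22 for Hes6, -0.10 to 0.15 for Insm1, -0.045 to 0.20 for Neurod1, -0.22 to 0.12 for Pax6 and -0.059 to 0.32 for Sox2. WK2 minus D1 ranged from -0.37 to 0.078 for Hes6, -0.25 to 0.049 for Lgr5, -0.17 to 0.083 for Neurod1 and -0.054 to 0.17 for Pax6. WK2 minus control ranged from -0.34 to 0.20 for Hes6, -0.00046 to 0.080 for Neurod1, -0.27 to 0.18 for Pax6 and -0.22 to 0.17 for Sox2. The cause of these shifts was not tested. Signal over background sets the limit for Kitl, Ms4a2, Dct and Tyr, which were dim.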
